A study of Mus musculus with 43 samples.

Results

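Osteopontin, encoded by Spp1, and Cd44, a cell-surface receptor it binds, were followed through every library of a study that exposed mouse colon epithelium and mouse colon fibroblasts to regorafenib. The members were 3 of the 52636 genes in each of the 2 expression tables: Spp1, the gene model Gm42793, which lies inside Spp1, and Cd44. They were picked by name, and Spp1 was picked because it moved in opposite directions in the epithelium and the fibroblasts under regorafenib. The regorafenib responses against vehicle are therefore given as a description, with no test. The comparisons that were tested reuse the vehicle or treated libraries of those responses and are not independent of them.

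The epithelial cultures were organoids, grown from colon crypts in Matrigel, and 24 libraries came from 6 lines. Colonoids (lines M41, M40 and M1) came from adult Vil-cre/ERT2/Apcwt/wt mice and tumoroids (F11, M3 and M14) from adult Vil-cre/ERT2/Apcflox/flox mice. Mice of both genotypes carried a tamoxifen-inducible Cre driven by the villin promoter, active in gut epithelium, and had received tamoxifen in vivo. Over 6 days each line received 0.5% DMSO as vehicle, regorafenib (a multi-kinase inhibitor) at 4 or 8 µM, or 5-FU (5-fluorouracil, an antimetabolite) at 1 µM, so that each of the 8 organoid groups held 3 lines. Fibroblasts grown in serum from the colons of wild-type C57B/6 mice gave 19 libraries. The 4 lines, named M3, M3(2), M1(2) and M11, received for 7 days 0.5% DMSO as vehicle, regorafenib at 4 or 10 µM, autogramin-2 (an inhibitor of GRAMD1A, a protein of autophagosome formation) at 1 µM, or autogramin-2 together with 4 µM regorafenib. M11 had no 10 µM library here. The study's legends describe each line as made from its own mouse, and a line name shared by an organoid and a fibroblast culture was not taken as the same mouse. Both epithelial genotypes and the fibroblasts were cultured apart, so the data hold no co-culture.

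Values are CP20M, the reads counted on a gene scaled to 20000000 per library. Library depth was 4371812 to 22368388 reads in 23 organoid libraries and 7949963 to 12825919 in the fibroblasts, but only 512592 in the 4 µM library of colonoid M41. In that shallow library 1 read was worth 39.0 CP20M, and 4 ribosomal-RNA-like transcripts (Gm26917, CT010467.1, Gm42418 and AY036118) took 19.6% of the reads, against 1.38 to 4.50% in the other 23. It held 152 reads on Spp1, 26 on Gm42793 and 98 on Cd44, and results that rest on it are given with and without it. Epithelial and fibroblast markers separated the organoid libraries from the fibroblast libraries. The 8 epithelial markers summed to 78752 to 205935 CP20M in organoids and 41 to 316 in fibroblasts, and the 8 fibroblast markers summed to 12 to 123 in organoids and 110998 to 186156 in fibroblasts. Vehicle-treated fibroblast cultures also held muscle-like markers (42484 to 100507 CP20M) and endothelial markers (1246 to 11467), so they were not shown to be fibroblasts alone. Apc, the gene deleted in tumoroids, stood at 1542 to 4944 CP20M in colonoids and 3813 to 6032 in tumoroids, but reads summed over all of its exons cannot check loss of the floxed exon. These are bulk cultures, so fewer cells of a type and less RNA per cell cannot be told apart.

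Osteopontin is a secreted, heavily phosphorylated glycoprotein of the SIBLING family, first studied in bone and also made by macrophages, epithelia and fibroblasts. It binds integrins through an RGD motif, exposes a further integrin site once thrombin or matrix metalloproteinases have cleaved it, and is described as a ligand of CD44. CD44 is the main receptor for hyaluronan, is a Wnt target in gut crypts, is spliced into epithelial and mesenchymal forms, and is tied to the cytoskeleton by the ezrin, radixin and moesin linkers.

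Spp1 (ENSMUSG00000029304) lay at chr5:104435118-104441050 on the plus strand of GRCm38 and Cd44 (ENSMUSG00000005087) at chr2:102811141-102901665 on the minus strand, with 7 and 9 annotated transcripts. Gm42793 (ENSMUSG00000105954) was a 1-exon model of biotype TEC, an annotation class that awaits experimental evidence, at chr5:104435121-104436372, on the same strand as Spp1. Of its 1252 bases, 309 fell inside annotated Spp1 exons and 943 in Spp1 intron. It started 3 bases after Spp1 and ended 2 bases before the next Spp1 exon. The 250 bases upstream of each RefSeq start (GRCm38.p6) are printed because Spp1 moved by far more than Cd44 in every treatment with regorafenib, and the letters show how the promoters differ. Capitals mark matches on either strand to 7 motifs, with positions counted back from the start.
Spp1, chr5:104434861-104435110, plus strand: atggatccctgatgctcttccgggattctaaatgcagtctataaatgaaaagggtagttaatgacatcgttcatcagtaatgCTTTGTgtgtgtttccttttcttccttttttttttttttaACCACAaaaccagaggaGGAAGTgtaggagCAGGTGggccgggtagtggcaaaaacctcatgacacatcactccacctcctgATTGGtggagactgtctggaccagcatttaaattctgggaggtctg
Cd44, chr2:102901666-102901915, minus strand: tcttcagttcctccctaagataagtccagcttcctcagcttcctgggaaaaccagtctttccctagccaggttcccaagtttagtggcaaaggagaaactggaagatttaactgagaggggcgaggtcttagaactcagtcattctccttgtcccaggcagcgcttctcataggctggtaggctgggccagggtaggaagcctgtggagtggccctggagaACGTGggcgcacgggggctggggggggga
The Spp1 window held a TCF/LEF motif (CTTTGT) at -168, a RUNX motif (ACCACA) at -128, an ETS motif (GGAAGT) at -111, an E-box (CANNTG) at -98 and, on the reverse strand, a CCAAT box (CCAAT) at -46, with no AP-1 (TGANTCA) or HIF (ACGTG) motif. The Cd44 window held the HIF motif at -29 and none of the other 6. Among 32851 promoter windows of the same length, 16.5% held the TCF/LEF letters, 14.0% the RUNX letters, 19.7% the ETS letters, 66.2% the E-box, 33.8% the CCAAT box, 6.75% the AP-1 letters and 16.6% the HIF letters. None of the marked motifs overlapped another. A match describes letters and not a bound site.

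In vehicle-treated organoids Spp1 was already an abundant transcript, and its level depended on the line. It stood at 2131 CP20M in M41, 2701 in M40 and 4293 in M1 among colonoids. Tumoroids gave 1940 in F11, 1655 in M3 and 11662 in M14. M14 was above every other vehicle-treated organoid line, whereas F11 and M3 were below all 3 colonoid lines, so the genotypes overlapped. Per kilobase of exon, Spp1 ranked between 343 and 906 of 52489 genes in vehicle-treated colonoids and between 77 and 1142 in tumoroids.

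The difference in Spp1 with loss of Apc lay within the spread between lines. The groups averaged 3042 ± 1121 CP20M in colonoids and 5086 ± 5697 in tumoroids (SD, n = 3 lines each). The difference was 0.20 ± 0.83 (SE) on the log2(CP20M + 20) scale, with a 95% interval of -1.56 to 1.97 and an adjusted p of 0.953 (limma across all genes, Benjamini-Hochberg), and it turned to -0.70 without line M14 and to -0.023 without M41. In this comparison 16 of 11320 genes were called, 0.141% (adjusted p under 0.01 and a log2 change of at least 1), and none of the members was among them. Cd44, at 8872 ± 1034 and 9013 ± 542 CP20M, differed by 0.028 ± 0.41 (interval -0.84 to 0.89, adjusted p = 0.987), a value that also took the other sign under median-of-ratios scaling. The 10 measured Wnt targets stood higher in tumoroids by a median of 0.86 log2 units, against 0.05 for all genes tested, but 0 of the 10 were called by limma, with 3 at an unadjusted p under 0.05 and 1 called by edgeR.

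Regorafenib at 4 µM went with more Spp1 in 6 of 6 organoid lines. Among colonoids Spp1 reached 5931 CP20M in M41, 19078 in M40 and 48919 in M1, which was 2.78, 7.06 and 11.4 times the vehicle level of the same line. Among tumoroids it reached 23763 in F11, 27414 in M3 and 59214 in M14, or 12.2, 16.6 and 5.08 times. All treated libraries except that of M41 lay above the highest vehicle library. The M41 value came from the shallow library and had a 95% Poisson interval of 5025 to 6952 CP20M, which covers counting error only.

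The higher dose gave Spp1 levels that were likewise above vehicle in every line. At 8 µM the colonoids held 8090 (M41), 16446 (M40) and 38428 CP20M (M1), between 3.80 and 8.95 times vehicle. The tumoroids held 9987 (F11), 25080 (M3) and 40630 (M14), between 3.48 and 15 times. M1 and M14, the lines with the highest Spp1 of their genotype in vehicle, also had the highest in all other treatments. Over both doses and both genotypes the fitted difference from vehicle was 2.79 on the log2 scale, and 2.99 without the shallow library. The call rule of that contrast (adjusted p under 0.001 and a change of at least 1.5-fold) took 563 of 11320 genes, 4.97%. The median over all genes tested was -0.10.

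**Figure D1:**
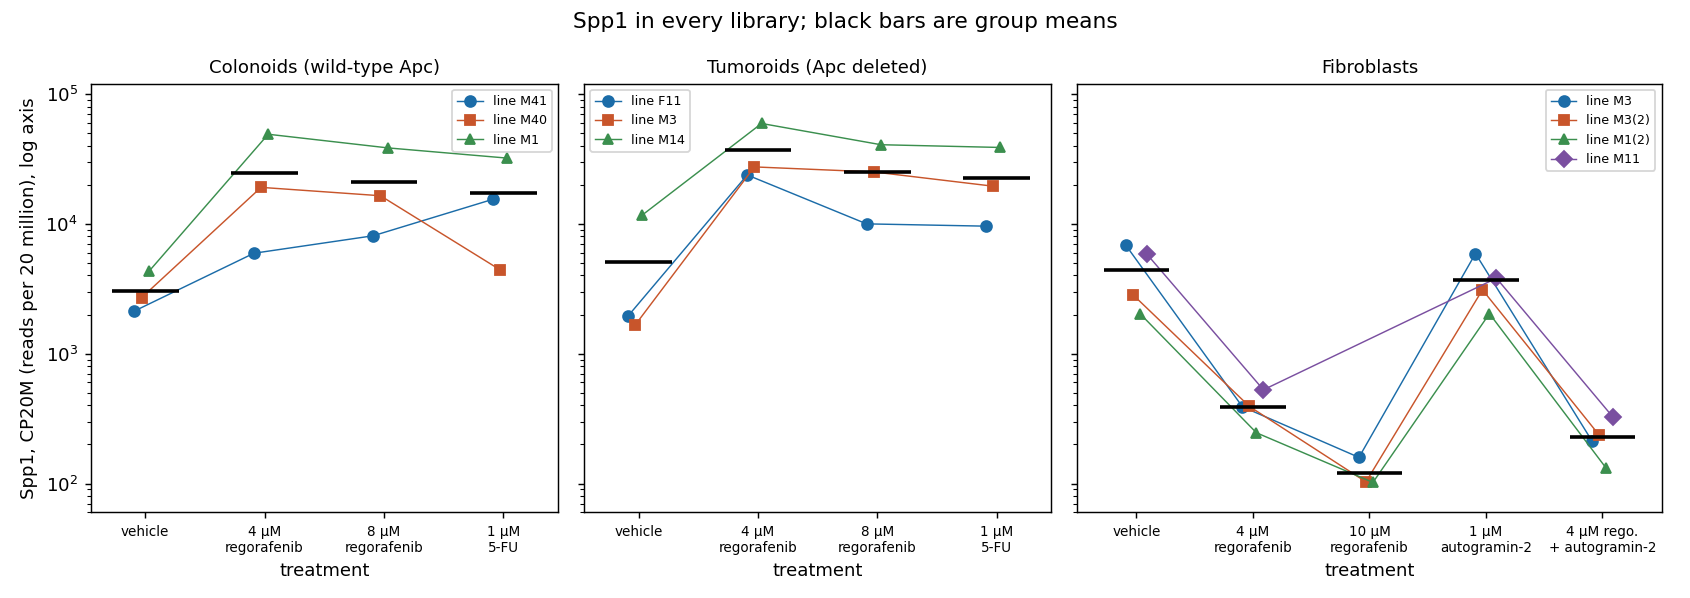
Spp1 in CP20M (log axis) in every library, by treatment, for organoids and fibroblasts; points are lines and black bars are group means. Organoid values ran from 1655 to 59214 and were lowest in vehicle, whereas fibroblast values ran from 102 to 6821 and were lowest under 10 µM regorafenib.

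No further change of Spp1 between 4 and 8 µM passed the test. It was lower at 8 than at 4 µM in 5 of 6 lines, M41 being the exception, but the difference of -0.34 ± 0.59 (interval -1.59 to 0.91) had an adjusted p of 0.790. Without the shallow library it was -0.73 with an adjusted p of 0.524, and adjusted p ranged from 0.274 to 0.927 over all alternatives. Here 51 of 11320 genes were called, 0.451% (adjusted p under 0.05 and a change of at least 1.5-fold), and none was a member. The size of the response was 0.43 ± 1.02 larger in tumoroids than in colonoids, which did not pass the test (interval -1.73 to 2.59, adjusted p = 1.00), and 0.037 larger without the shallow library. That test called 1 gene, 0.00883% of those tested. It was Clca1, a goblet cell product named here after its values were seen.

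5-FU, a drug unrelated in target to regorafenib, also went with more Spp1 in 6 of 6 organoid lines. Its level was 15419 CP20M in M41, 4435 in M40 and 32054 in M1, which was 7.24, 1.64 and 7.47 times vehicle. Tumoroids held 9589 in F11, 19475 in M3 and 38706 in M14, or 4.94, 11.8 and 3.32 times vehicle. M40 showed the smallest response to 5-FU although it responded 7.06 times to 4 µM regorafenib, and M41 the reverse order, with its 5-FU library above both of its regorafenib libraries. Spp1 under 4 µM regorafenib exceeded Spp1 under 5-FU in 5 of 6 lines.

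Whether these differences passed a test depended on how the lines entered it. With groups alone, the change was 2.15 ± 0.87 in colonoids (interval 0.33 to 3.96, adjusted p = 0.583 by limma) and 2.52 ± 0.87 in tumoroids (0.71 to 4.34, adjusted p = 0.252), and neither was called. This fit called 5 of 11562 genes in colonoids, 0.0432%, namely Homer3, Cdk18, Rgs12, Nova2 and Mycn (named after their values were seen), and 21 in tumoroids, 0.182%. With the line as a replicate block, which compares each treated culture with the vehicle culture of its own mouse, adjusted p was 0.0175 in tumoroids, where Spp1 was called, and 0.0624 in colonoids, where it was not. The block called 0.666% of genes in colonoids and 2.48% in tumoroids. With the block and without the shallow library, a combination chosen after the values were seen, Spp1 was called in both (adjusted p = 0.0157 and 0.00414), beside 3.49% and 6.37% of all genes. Over all alternatives adjusted p ranged from 0.0157 to 1.00 in colonoids and from 0.00414 to 1.00 in tumoroids. The 5-FU contrasts share their vehicle libraries with the regorafenib responses.

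In fibroblasts the direction was the opposite. Vehicle-treated fibroblasts expressed Spp1 at 6821 CP20M in M3, 2845 in M3(2), 2036 in M1(2) and 5836 in M11. With 4 µM regorafenib the same lines held 390, 392, 246 and 527 CP20M, which was 17.5, 7.26, 8.28 and 11 times lower. With 10 µM the 3 lines held 159, 103 and 102, or 0.0233 to 0.0501 times vehicle. Every regorafenib library lay below every vehicle library, and in each of the 3 lines Spp1 was lower at 10 than at 4 µM, by 2.41 to 3.81 times.

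Per kilobase of exon Spp1 ranked between 166 and 793 of 52489 genes with vehicle and between 7939 and 9871 at 10 µM. The libraries still held at least 44 reads on Spp1, far above the 3 reads (4.68 to 7.55 CP20M) that a count of 0 allows. Fitted differences from vehicle were -3.31 at 4 µM and -4.82 at 10 µM, the latter with the vehicle library of M11 included although M11 had no 10 µM library. The lines that had both gave a mean of -4.62. In these contrasts 1.02% and 7.33% of 11032 genes were called (adjusted p under 0.05 and a change of at least 1.5-fold).

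**Figure D2:**
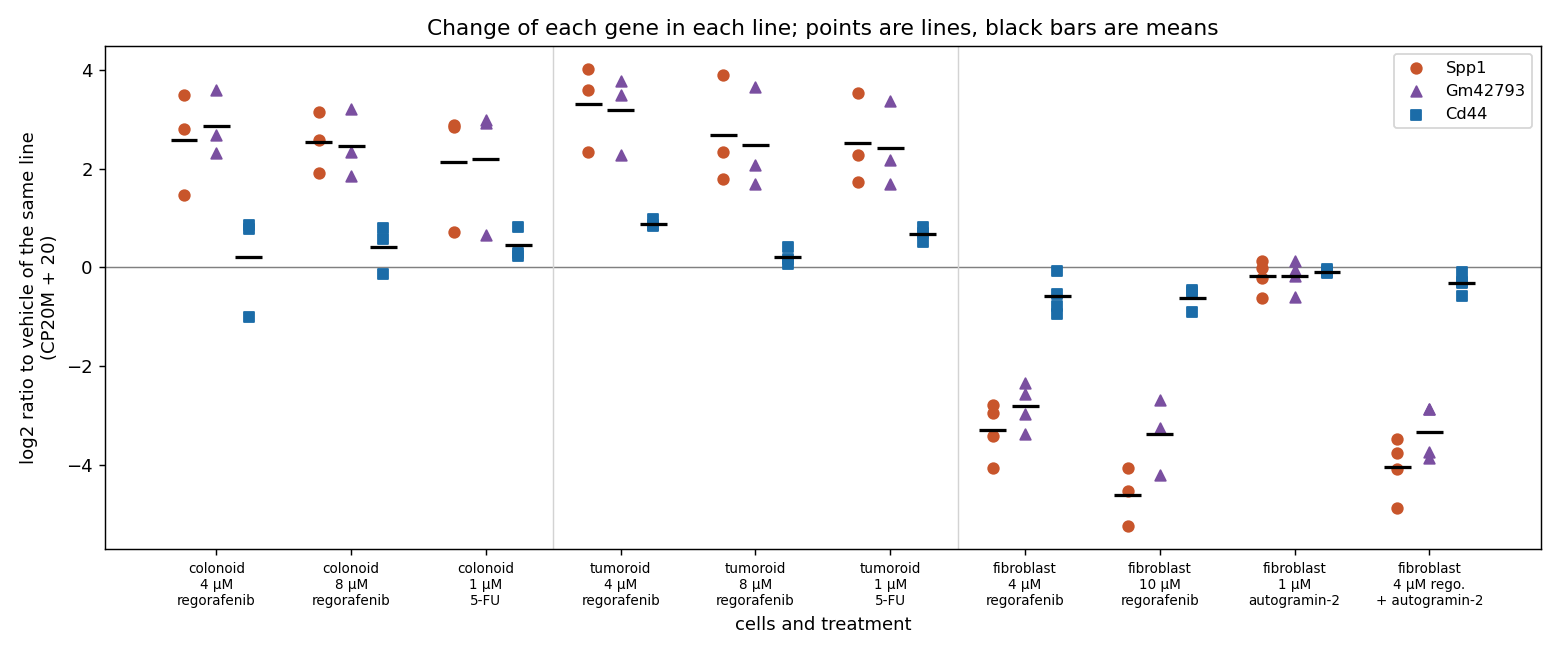
log2 ratio of Spp1, Gm42793 and Cd44 to vehicle of the same line, on CP20M + 20; points are lines and black bars are means. Spp1 averaged 2.96 over 6 organoid lines and -3.31 over 4 fibroblast lines at 4 µM regorafenib, while Cd44 stayed within about 1 log2 unit of vehicle in every line.

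Macrophages are a rich source of osteopontin, and their markers moved with the fibroblast result. The 14 macrophage markers summed to 2787 CP20M in M3, 1246 in M3(2), 2071 in M1(2) and 7032 in M11 with vehicle. With 4 µM regorafenib the sums were 1246, 797, 1049 and 2350, and with 10 µM 678, 624 and 650. Lyz2, a myeloid lysozyme, stood at 674 to 4214 CP20M with vehicle and at 217 to 268 at 10 µM. It was the 1 of 3 tested macrophage markers that limma called at 10 µM (-2.60 ± 0.60, adjusted p = 0.00806), beside 7.33% of all genes. All 3 had an unadjusted p under 0.05 at that dose, edgeR called 2 of them, and their median was -2.35. At 4 µM 0 of the 3 were called by limma or edgeR, with 2 at an unadjusted p under 0.05. The order of the lines differed between the 2 measures, since M3 had more Spp1 than M11 and a lower marker sum. None of the 14 was at 0 in every fibroblast library, and their part in the lower Spp1 was not tested. In organoids the defining markers were near 0: C1qc was at 0 in 24 of 24 libraries, Lyz2 in 22 and Adgre1 in 21, while the list summed to 796 to 3666 CP20M, with Csf1r at 352 to 625, Cd14 at 261 to 2560 and Cd68 at 32 to 2659. In the library with the highest sum, colonoid M41 at 8 µM, Cd68 made up 2659 of the 3666. Cd68, a lysosomal protein, was called higher at 8 than at 4 µM (2.47 ± 0.49, adjusted p = 0.0391).

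With autogramin-2 alone Spp1 levels were close to vehicle. It stood at 5899 CP20M in M3, 3103 in M3(2), 2033 in M1(2) and 3812 in M11, lower than vehicle in 3 of 4 lines and at 0.653 to 1.09 times its level. The change was -0.17 ± 0.38 (interval -0.99 to 0.64, adjusted p = 1.00). No gene was called with autogramin-2 alone (0 of 11032, 0%, by limma, with 120 at an unadjusted p under 0.05, and 0 by edgeR).

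Adding autogramin-2 to 4 µM regorafenib went with a further, narrow decrease. Spp1 was 213 CP20M in M3, 237 in M3(2), 132 in M1(2) and 325 in M11. Each was below the 4 µM library of its own line, by 1.83, 1.65, 1.86 and 1.62 times, although the groups overlapped because the lines differ. The mean change within lines was -0.74 ± 0.08 (SD, n = 4). With groups alone it had an SE of 0.38 (interval -1.55 to 0.07, adjusted p = 0.882), and 1 gene in 11032 was called, 0.00906%: Txnip (-0.67), named after its values were seen. With the line as a replicate block Spp1 was called (adjusted p = 0.0439), beside 1.43% of all genes, and over all alternatives adjusted p ranged from 0.0439 to 1.00. The study itself singled out Spp1 in this comparison on these samples, so the call is no independent evidence. The macrophage marker sums moved the same way, from 797 to 2350 CP20M with regorafenib alone to 525 to 767 with both compounds, and their part was not tested.

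Gm42793 followed Spp1 in every comparison. It ranged from 186 to 6239 CP20M in organoids and from 7 to 596 in fibroblasts. In each library its reads were a nearly fixed share of the Spp1 reads, 8.69 to 11.5% in 23 organoid libraries (median 10.4%), 17.1% in the shallow library, where it rested on 26 reads, and 6.06 to 12% in fibroblasts (median 8.44%). The correlation of the log2 values was 0.99 over 24 organoid libraries and 0.99 over 19 fibroblast libraries, a description of libraries that share lines and treatments. The overlap of the models and a strand setting that is not given in the sources used here mean that reads of Gm42793 and of unspliced Spp1 cannot be told apart.

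Its fitted changes paralleled those of Spp1. They were 2.75 with regorafenib in organoids, -2.81 at 4 µM and -3.57 at 10 µM in fibroblasts, and -0.53 ± 0.38 when autogramin-2 was added (adjusted p = 0.935). At 10 µM the 3 lines held 7 to 13 CP20M, the lowest being 3 reads, so the pseudocount of 20 CP20M compressed its fold change. With 5-FU the fitted fold change was 4.58 in colonoids (adjusted p = 0.545) and 5.36 in tumoroids (adjusted p = 0.247). The SE was 0.83 on the log2 scale in both, and the replicate block called both (adjusted p = 0.0432 and 0.0125).

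**Figure D3:**
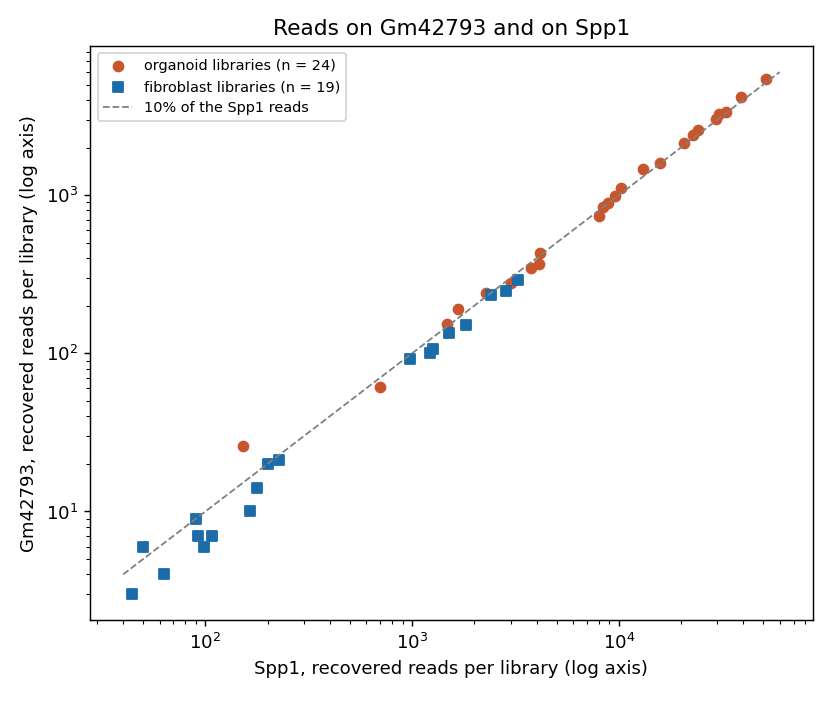
Reads on Gm42793 against reads on Spp1 in each of 43 libraries, both on log axes. The points follow a line of constant share in organoids (median 10.4%) and fibroblasts (median 8.44%), over 152 to 51665 Spp1 reads in organoids and 44 to 3267 in fibroblasts.

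Cd44, the receptor, changed far less than its ligand. Over all libraries Spp1 spanned 35.8-fold in organoids and 66.9-fold in fibroblasts, and Cd44 4.78-fold and 2.16-fold. Under vehicle Cd44 was 7678, 9470 and 9468 CP20M in colonoids M41, M40 and M1. The tumoroids F11, M3 and M14 held 8390, 9272 and 9377, within the colonoid range. Per kilobase of exon Cd44 lay between ranks 741 and 1044 of 52489 genes in these 6 libraries.

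At 4 µM regorafenib Cd44 was higher in 5 of 6 organoid lines. Tumoroids held 14960 (F11), 18292 (M3) and 16985 CP20M (M14), a narrow 1.78 to 1.97 times vehicle. Colonoids M40 and M1 held 17207 and 16217, or 1.82 and 1.71 times. The exception was the shallow M41 library with 3824 CP20M from 98 reads (Poisson interval 3104 to 4660), 0.498 times its vehicle. At 8 µM Cd44 stood at 13443 (M41), 14227 (M40) and 8615 (M1) in colonoids and at 8861 (F11), 12418 (M3) and 10535 (M14) in tumoroids, so M1 was at 0.910 times vehicle and the tumoroids at 1.06 to 1.34 times. The fitted difference over both doses was 0.44, and 0.61 without the shallow library.

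For Cd44 the comparison of doses turned on the shallow library. The step from 4 to 8 µM was -0.23 ± 0.29 (interval -0.84 to 0.38, adjusted p = 0.704) with all libraries. In all 3 tumoroid lines Cd44 was lower at 8 µM, at 0.592 to 0.679 times its 4 µM level. Without the shallow library the step was -0.58 with an adjusted p of 0.0422, short of the 1.5-fold limit and so not called, and with the line as a replicate block as well adjusted p was 0.0268. Over all alternatives adjusted p ranged from 0.0268 to 0.934, and without line M1 the change was 0.050. The genotypes differed in the response by 0.24 ± 0.50 (adjusted p = 1.00), and by -0.11 without the shallow library.

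5-FU went with slightly more Cd44 in 6 of 6 lines. Its levels were 9081 (M41), 16871 (M40) and 11539 CP20M (M1) in colonoids, 1.18 to 1.78 times vehicle, and 13582 (F11), 13333 (M3) and 16592 (M14) in tumoroids, 1.44 to 1.77 times. The fit gave 0.45 ± 0.38 in colonoids (interval -0.35 to 1.25, adjusted p = 1.00) and 0.68 ± 0.38 in tumoroids (-0.12 to 1.48, adjusted p = 0.597), neither called. With the replicate block and without the shallow library the tumoroid value was called (adjusted p = 0.0241), while adjusted p over all alternatives ran from 0.0241 to 1.00.

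In fibroblasts Cd44 was abundant and lower with regorafenib. Vehicle libraries held 21023 (M3), 19765 (M3(2)), 22144 (M1(2)) and 13882 CP20M (M11). At 4 µM these were 14454, 10232, 12830 and 13207, lower in 4 of 4 lines, at 0.518 to 0.951 times vehicle, with M11 nearly level. At 10 µM they were 14850, 10520 and 16108, at 0.532 to 0.727 times. Unlike Spp1, Cd44 was not lower at 10 than at 4 µM in any of the 3 lines (1.03 to 1.26 times). Fitted differences were -0.59 and -0.47.

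With autogramin-2 alone Cd44 stood at 19617, 19276, 21044 and 12758 CP20M in the same order of lines, 0.919 to 0.975 times vehicle. The change was -0.08 ± 0.19 (interval -0.48 to 0.32, adjusted p = 1.00). With both compounds Cd44 stood at 17142, 13270, 17710 and 13040, above the 4 µM library of its line in 3 of 4 lines. That change of 0.27 ± 0.19 (interval -0.14 to 0.67, adjusted p = 0.935) was opposite in sign to that of Spp1 and was not called, with the replicate block included (adjusted p = 0.190).

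**Figure D4:**
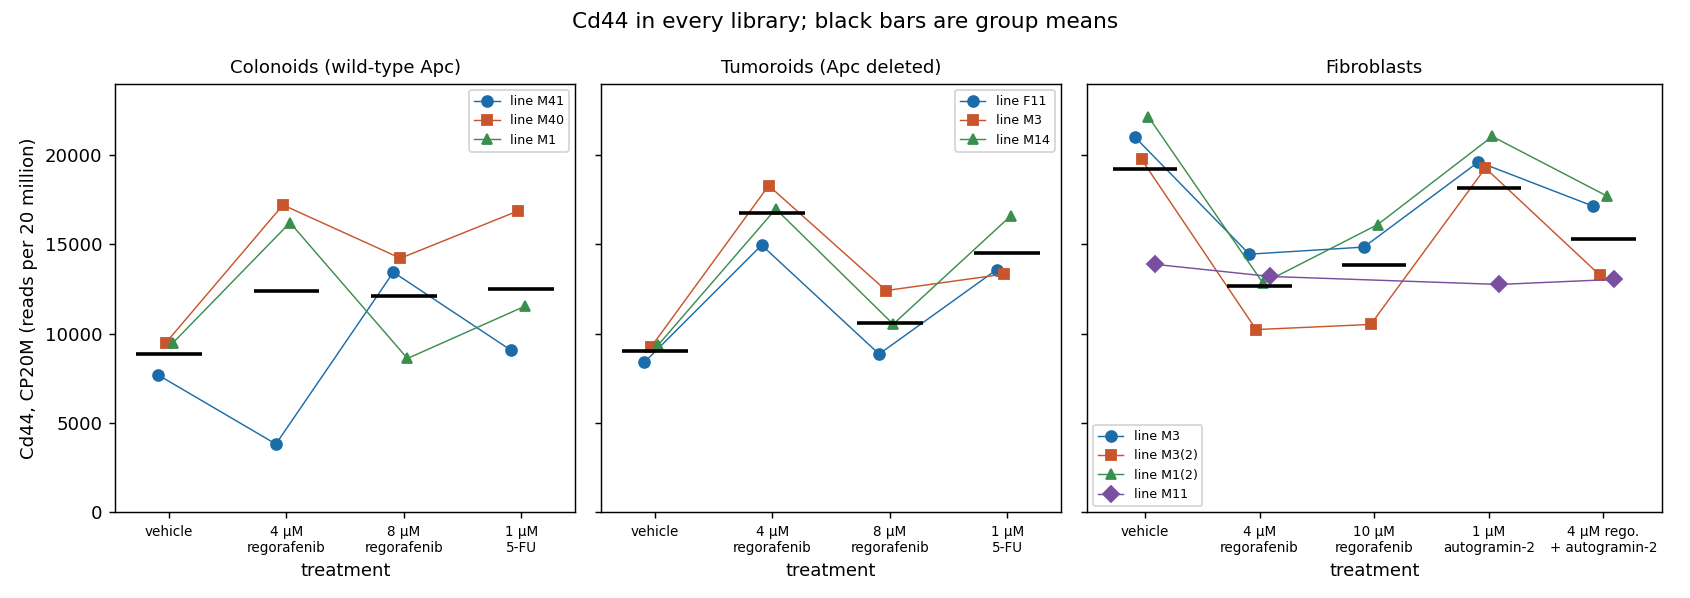
Cd44 in CP20M in every library, by treatment, for organoids and fibroblasts; points are lines and black bars are group means. Organoids ran from 3824, in the shallow M41 library, to 18292, and fibroblasts from 10232 to 22144.

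The order of the group means on the log2 scale put all treated organoid groups above both vehicle groups for Spp1, from tumoroids at 4 µM regorafenib (36797 ± 19499 CP20M) through tumoroids at 8 µM (25232 ± 15322), tumoroids with 5-FU (22590 ± 14806), colonoids at 4 µM (24643 ± 22028), colonoids at 8 µM (20988 ± 15671) and colonoids with 5-FU (17303 ± 13906) to the vehicle groups. Every pair of neighbours in that order overlapped in range, and the gap of 1.95 log2 units between colonoids with 5-FU and vehicle-treated tumoroids was the only gap wider than the pooled SD of its pair (1.50). Without the shallow library colonoids at 4 µM moved from position 4 to 2 in that order, neighbours still overlapping. In fibroblasts the order was vehicle (4385 ± 2304), autogramin-2 (3712 ± 1631), 4 µM regorafenib (389 ± 115), both compounds (227 ± 79.4) and 10 µM (121 ± 32.6). The single break in that order without overlap lay between autogramin-2 and 4 µM regorafenib, 3.13 log2 units wide. For Cd44 every pair of neighbours overlapped in both tables. The tables were scaled separately, so levels are set side by side between them without a test.

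Per kilobase of exon, the gap between Spp1 and Cd44 differed from group to group. In vehicle-treated colonoids Spp1 averaged 1846 ± 680 and Cd44 1309 ± 153 CP20M per kilobase. In tumoroids at 4 µM regorafenib the level of Spp1 was 22328 ± 11832, among ranks 11 to 26 of all genes, and that of Cd44 2471 ± 248. In fibroblasts the levels were 2661 ± 1398 and 2834 ± 543 with vehicle, and 73.6 ± 19.8 and 2040 ± 433 at 10 µM.

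The integrins that bind osteopontin were measured beside it, 6 of 11 subunits passing the filter on low values (at least 200 CP20M in at least 2 libraries) in organoids and 9 of 11 in fibroblasts. With regorafenib in organoids 1 of 6 was called higher and 0 lower by limma, where 4.97% of all genes were called, and edgeR called 2 of the 6. The median was 0.73 against -0.10 for all genes tested. The gene called by limma was Itga5, the alpha subunit of the fibronectin receptor. Itga5 stood at 27 to 118 CP20M in the 6 vehicle libraries and at 194 to 875 in the 12 regorafenib libraries, without overlap (2.22 ± 0.27, adjusted p = 5.17e-05). Itgav, the alpha v subunit shared by the main osteopontin receptors, had a value of 1.18 and missed the limit of 0.001 (adjusted p = 0.00115). In both 5-FU contrasts 0 of 6 were called, with medians of 0.59 in colonoids and 0.78 in tumoroids against 0.01 and -0.02 for all genes.

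In fibroblasts Itga8, which pairs with beta 1 integrin to bind osteopontin and nephronectin, was called higher at both doses. Vehicle libraries held 242, 426, 394 and 285 CP20M of Itga8. At 4 µM these were 1309, 1381, 1142 and 1089 (1.84 ± 0.22, adjusted p = 0.000257) and at 10 µM 2463, 2931 and 1906 (2.79 ± 0.24, adjusted p = 2.73e-06), with no overlap between the groups. Itgb3, the partner of alpha v in the classical osteopontin receptor, was called lower at 10 µM (-1.32 ± 0.38, adjusted p = 0.0286), from 316 to 794 CP20M in vehicle to 130 to 243. The other 7 subunits were not called at 10 µM, nor the other 8 at 4 µM, where 7.33% and 1.02% of all genes were called. The list's medians were 0.18 and -0.23, against -0.0023 and -0.04 for all genes.

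Of the enzymes that cleave or modify osteopontin, 3 of 6 tested were called lower and 0 higher at 10 µM in fibroblasts (median -1.10), beside 7.33% of all genes called in either direction. They were Mmp3, stromelysin (-2.86 ± 0.68, adjusted p = 0.0101), Mmp12, the macrophage elastase (-2.41 ± 0.52, 0.00561), and Plau, the urokinase that activates plasminogen (-1.89 ± 0.35, 0.00207). Plau was 5257, 4898, 6227 and 2828 CP20M with vehicle and 1203, 1228 and 1249 at 10 µM. Fam20c, the kinase that phosphorylates secreted proteins, had a value of 0.12 there (adjusted p = 0.868). In organoids 0 of the 5 tested, which did not include Mmp3 or Mmp12, were called with regorafenib by limma or edgeR, beside 4.97% of all genes by limma. Of the 5, 2 had an unadjusted p under 0.05, and the median was -0.04. Fam20c had a value of -0.89 ± 0.18 in organoids and missed the limit of 0.001 used there (adjusted p = 0.00212 by limma). Of 12 transcription factors described as acting on Spp1 (RUNX, ETS and AP-1 members, Hif1a and Mitf), 11 were tested in organoids and 10 in fibroblasts. Mitf was below the filter in both. By limma 0 of those tested were called higher in any comparison, but the limit on adjusted p was stricter for regorafenib in organoids. There 3 of the 11 had positive values, and edgeR called 2 of the 11 in either direction. Etv4 (0.66 ± 0.21, adjusted p = 0.0278 by limma) and Etv5 (0.57 ± 0.15, adjusted p = 0.0128), both ETS members, missed the organoid limit. Etv4 would have passed the rule used in fibroblasts. So would Fosl1 (-0.80 ± 0.21, adjusted p = 0.0112 by limma) and Ets2, an ETS member (-0.63 ± 0.21, adjusted p = 0.0360), both of which were lower. Ets1, also an ETS member, was lower as well (-0.41 ± 0.14, adjusted p = 0.0464), short of the 1.5-fold limit. Fos, an AP-1 subunit, was called lower with regorafenib in organoids (-1.88 ± 0.21, adjusted p = 2.19e-05), from 1259 to 4112 CP20M in vehicle to 298 to 2038, and Fosl1 lower at 10 µM in fibroblasts (-0.83 ± 0.26, adjusted p = 0.0428). The list's median was -0.39 in organoids and -0.34 at 10 µM in fibroblasts.

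Around Cd44, genes of hyaluronan metabolism were measured in part in each cell kind. In organoids 0 of the 6 tested were called with regorafenib by limma, 1 by edgeR and 2 had an unadjusted p under 0.05 (median 0.09). Has2, Vcan and Cemip were not among the 6. The limit on adjusted p was 0.001 in organoids and 0.05 in fibroblasts, so the counts are not alike. Hyal1 (1.16 ± 0.27, adjusted p = 0.0052) and Has3 (-0.75 ± 0.16, adjusted p = 0.0027) missed the organoid limit by limma. At 10 µM in fibroblasts 1 of 10 was called higher and 3 lower, beside 7.33% of all genes, with a median of -0.27. Has2, a hyaluronan synthase, was 1915, 969, 909 and 931 CP20M with vehicle and 382, 133 and 162 at 10 µM (-2.35 ± 0.40, adjusted p = 0.00126). Cemip, which takes part in hyaluronan breakdown, rose from 5611, 3464, 3138 and 1446 to 17925, 15459 and 10243 (2.2 ± 0.59, adjusted p = 0.0202). Vcan, versican, which binds hyaluronan, fell at both doses (-1.08 ± 0.22 and -1.24 ± 0.24, adjusted p = 0.0175 and 0.00264), and Hmmr, a hyaluronan receptor and spindle protein, fell at 10 µM (-1.74 ± 0.40, adjusted p = 0.00827).

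Among Cd44 partners, linkers and sheddases, moesin (Msn), which links CD44 to actin, was the 1 of 8 called with regorafenib in organoids, beside 4.97% of all genes. It stood at 5146 to 13029 CP20M in the vehicle libraries and at 18907 to 27667 in the 12 regorafenib libraries, without overlap (1.55 ± 0.17, adjusted p = 1.78e-05). Timp1, a metalloproteinase inhibitor, was the 1 of 9 called at 10 µM in fibroblasts (-1.87 ± 0.35, adjusted p = 0.00243), beside 7.33% of all genes. Of 6 regulators of Cd44 splicing, Esrp2, an epithelial splicing factor, was called lower with regorafenib in organoids (-0.68 ± 0.10, adjusted p = 0.000162), and the list's median was -0.50. The tables hold gene totals, so Cd44 isoforms were not measured. Over these 6 lists limma called 0 genes for Apc loss, the genotype difference, the step from 4 to 8 µM, 5-FU in colonoids, 5-FU in tumoroids, autogramin-2 alone and its addition to regorafenib. In that order 4, 0, 6, 5, 7, 2 and 7 of the 42 to 48 tested had an unadjusted p under 0.05, and edgeR called 1 in the dose step, 1 with 5-FU in tumoroids and 0 in the others. All list counts came from fits with groups alone, and the line block was not applied to the lists. Over all genes the block called 0.666% with 5-FU in colonoids, against 0.0432% without it. The shares were 2.48 against 0.182% with 5-FU in tumoroids and 1.43 against 0.00906% for added autogramin-2.

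**Figure D5:**
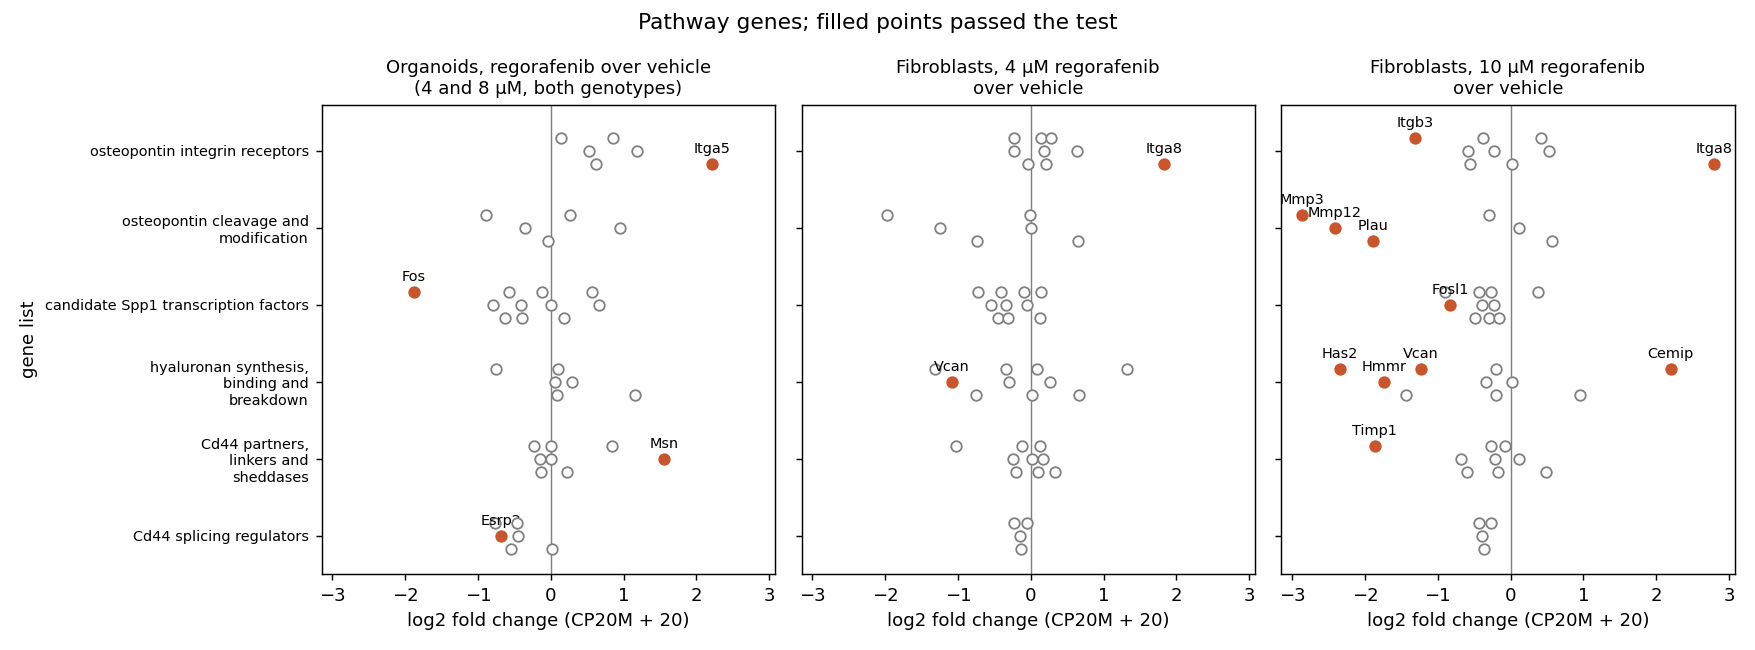
log2 fold change (CP20M + 20) of every tested gene of the pathway lists with regorafenib in organoids and at 10 µM in fibroblasts; filled points passed the call rule. Itga5 at 2.22 and Msn at 1.55 stand out in organoids, and Itga8 at 2.79, Cemip at 2.2, Mmp3 at -2.86 and Has2 at -2.35 in fibroblasts.

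Some markers of cell state were called in the same regorafenib contrasts, but most of those tested were not. In organoids Ascl2, a crypt stem cell factor, was the 1 of 10 Wnt targets called by limma (-2.04 ± 0.34, adjusted p = 0.000509). Cldn7, a tight junction claudin, was the 1 of 8 epithelial markers called (-0.65 ± 0.11, adjusted p = 0.000749), beside 4.97% of all genes. edgeR called 2 of the 10 and 0 of the 8. Myc, another Wnt target, had a value of -0.89 ± 0.18 in organoids and missed the limit of 0.001 (adjusted p = 0.00205 by limma). Of the 8 fibroblast markers 4 had positive and 4 negative values at each dose (medians -0.04 and -0.17). Among them Pdgfra, a growth factor receptor used as a fibroblast marker, was lower by limma at 4 µM (-2.51 ± 0.61, adjusted p = 0.0459) and 10 µM (-3.03 ± 0.66, adjusted p = 0.00550). edgeR called 0 of the 8 at 4 µM and 2 at 10 µM. Myh11, smooth muscle myosin and the 1 of 5 tested muscle-like markers called, was higher at both doses (1.86 ± 0.34 and 1.87 ± 0.36, adjusted p = 0.00854 and 0.00298). Of all genes 1.02% and 7.33% were called at these doses. Col3a1 was also lower at 10 µM (-1.43 ± 0.36, adjusted p = 0.0150), as was Myc, the 1 of 6 Wnt targets called there (-0.83 ± 0.15, adjusted p = 0.00186). The 6 muscle-like markers summed to 42484 to 100507 CP20M with vehicle, 69830 to 162310 at 4 µM and 127438 to 148935 at 10 µM, where Spp1 was lowest. The 6 endothelial markers ranged from 1246 to 11467 with vehicle, 1882 to 31460 at 4 µM and 1589 to 6958 at 10 µM, and 0 of 6 were called by limma or edgeR at either dose, with 1 and 0 at an unadjusted p under 0.05. The part of these changes in those of Spp1 and Cd44 was not tested.

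Spp1 was the only SIBLING gene with more than trace reads. The bone and tooth genes Ibsp, Dmp1, Dspp and Mepe were at 0 in 10, 23, 21 and 23 of 24 organoid libraries and in 16, 18, 18 and 18 of 19 fibroblast libraries. Their highest values were 40, 7, 7 and 2 CP20M in organoids, the 40 being about 1 read in the shallow library, and 3, 7, 3 and 3 in fibroblasts. The floor of 3 reads was 2.68 to 13.7 CP20M in the organoid libraries other than the shallow one, where it was 117, so these 4 genes were not tested.

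The genes whose log2 values tracked Spp1 most closely, Gm42793 aside, were Spred3 (r = 0.86), Slc39a13 (0.84), Lrrc8c (0.84), Tead2 (0.83) and Itm2c (0.83) over the 24 organoid libraries, and Socs5 (0.95), Snx5 (0.94), G6pdx (0.93) and Adora2b (0.93) over the 19 fibroblast libraries. For Cd44 they were Gm44649 (0.91), Iqgap1 (0.89), Gm6649 (0.89), Gm15929 (0.88) and Lrrc8b (0.88) in organoids, and Irs1 (0.93), Golm1 (0.90), Gm9747 (0.89), Mt1 (0.89) and Kmt5a (0.88) in fibroblasts. Without the shallow library 3 of the 5 organoid genes stayed among the 5 closest to Spp1 (Spred3, Slc39a13 and Lrrc8c) and 2 of the 5 among the closest to Cd44 (Iqgap1 and Gm44649). These libraries share lines and treatments. Once group means were subtracted, 1 of the 5 organoid genes and 0 of the 4 fibroblast genes stayed among the closest to Spp1. Spp1 and Cd44 themselves gave r = 0.50 in organoids (0.54 without the shallow library) and 0.51 in fibroblasts, and 0.27 and -0.33 with group means subtracted.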

How the data were processed

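Bulk RNA-seq of 24 organoid and 19 fibroblast libraries was used. Per the labels and the study's methods, the authors trimmed reads (Trimmomatic 0.36), aligned them to GRCm38 (STAR 2.5.3a, submitters' processing notes) and counted genes (HTSeq 0.9.1). The sources name different library kits, and the strand setting of the counting is not given in the sources used here. The deposited signal is gene counts scaled to 20000000 reads and rounded up (CP20M). The study's legends describe the values as per kilobase, but 1 read was worth the same in every gene of a library, so they were read as not divided by gene length, and levels per kilobase were computed here. Whole reads could be recovered for at least 99.6% of values.

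Groups came from the labels. The titles of 3 tumoroid 5-FU libraries say colonoid, and these were placed by genotype label. Values were tested as log2(CP20M + 20) with limma 3.58.1 (R 4.3.3), 1 coefficient per group, in genes with at least 200 CP20M in at least 2 libraries, with Benjamini-Hochberg adjustment over 11320 (18 organoid libraries without 5-FU), 11562 (24, for 5-FU) or 11032 (fibroblast) genes. edgeR 4.0.16 on recovered reads, a pseudocount of 5, a filter of 20 CP20M, median-of-ratios scaling, a line block and leaving out lines were alternatives. Same-numbered libraries of a genotype or fibroblast kind come from the same line, so lines pair samples: deviations from group means correlated at 0.43, 0.50 and 0.72 on average within lines and -0.21, -0.25 and -0.23 between lines (18 and 24 organoid and 19 fibroblast libraries). Without the line block p-values measure the spread between these lines, and with it the spread of the treatment response between them. The fits were tested on simulated data. Gene models came from GENCODE M21, which 52489 of 52636 genes matched, and promoters from RefSeq (both members with a RefSeq promoter matched). Intervals and floors cover counting error only. The members and gene lists were chosen with earlier results of these data known. Of the lists, genes called were named (at most 4 per comparison, by size), with the SIBLING genes, and for likeness the 5 genes of highest Pearson correlation, of which 1 is not reported here.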

Additional observations from a re-analysis of the deposited data

Results flagged for a closer look

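Spp1 moved one way in every organoid line and the opposite way in every fibroblast line at 4 µM regorafenib. The mean log2 ratio to vehicle was 2.96 over 6 organoid lines and -3.31 over 4 fibroblast lines. Gm42793, whose model overlaps that of Spp1, gave 3.03 and -2.81. The difference between the cell kinds was not tested, since the tables were scaled separately, the cultures ran for 6 and 7 days and the members were chosen for this pattern. In the 12 sets of 4 fibroblast libraries examined with Dixon's test, 0 held a library set apart from the rest, where chance would give about 1 in 20.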

How the results depend on the processing

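No alternative reversed the direction of Spp1 or Gm42793 with regorafenib or 5-FU against vehicle. Leaving out the shallow library raised the genes called to 84 for Apc loss, 1127 for regorafenib in organoids, 130 for the step from 4 to 8 µM, 32 for 5-FU in colonoids and 230 in tumoroids, and lowered them to 0 for the genotype difference. It turned that difference to -0.11 for Cd44 and -0.10 for Gm42793.

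With the line as a replicate block, 201 genes were called for the dose step, 77 and 287 for 5-FU in colonoids and tumoroids, 796 and 1519 for 4 and 10 µM in fibroblasts, and 158 for added autogramin-2. The block made Spp1 (2.52 with 5-FU in tumoroids, -0.74 with added autogramin-2) and Gm42793 (both 5-FU contrasts) pass, and changed no other call of the members. With block and shallow library removed, counts were 1428, 295, 402 and 734 (regorafenib, dose step, 5-FU in colonoids and tumoroids), Spp1 passed at 2.15 and 2.52 with 5-FU, Cd44 passed at 0.68 in tumoroids, and the Cd44 genotype difference was -0.11.

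A pseudocount of 5 gave 7 genes for Apc loss and 0 for the genotype difference, and a filter of 20 CP20M gave 37 and 2. Median-of-ratios scaling gave 31 for Apc loss, 0 for the genotype difference, 93 for the dose step, 0 and 35 for 5-FU and 0 for added autogramin-2, with Cd44 at -0.033 for Apc loss. edgeR gave 27, 889 (regorafenib), 0, 96, 0, 87 and 0, with Cd44 at -0.017 for Apc loss and the genotype difference at -0.35 for Spp1 and -0.55 for Gm42793.

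With each line left out in turn, counts ran from 3 to 49 (Apc loss), 155 to 642 (regorafenib in organoids), 0 to 1 (genotype difference), 0 to 35 (dose step), 0 to 6 and 0 to 163 (5-FU), 28 to 317 and 358 to 1118 (4 and 10 µM in fibroblasts), and were 0 for added autogramin-2. The Apc effect ran from -0.70 to 0.71 for Spp1, -0.45 to 0.85 for Gm42793 and -0.073 to 0.078 for Cd44. The genotype difference ran from -0.052 to 0.90 for Spp1 and -0.28 to 0.59 for Gm42793, and the dose step of Cd44 from -0.63 to 0.050. The cause was not tested. Depth limits the shallow library, with 98 reads on Cd44 and 26 on Gm42793.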
